A study of Mus musculus with 2 samples.

Results

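The Mir106b-25 and Mir106a-363 clusters are paralogues of the Mir17-92 cluster, and together they comprise 9 of the 2202 microRNA (miRNA) genes counted in young mouse hearts. The members were selected by gene symbol, after the listed identifiers were matched to GENCODE M21. The rule used no measured value, but it was set with earlier results of these data known. Mir106b, Mir93 and Mir25 form the first cluster, and Mir106a, Mir18b, Mir20b, Mir19b-2, Mir92-2 and Mir363 form the second. Libraries with a size range below 30 (the label gives no unit) were sequenced from heart tissue of 2 male mice of the first-generation cross B6CASTF1/J, aged 25 days, and the labels name no treatment, transgene or contrast. They are labelled as biological replicates 1 and 2, from separately numbered animals that share a donor identifier. Days were taken from the age and source labels, although the descriptions attach months to the same figure. The authors' tables placed 4930853 of 13210462 reads of replicate 1, and 5229819 of 14363882 reads of replicate 2, on the sense strand of a single miRNA gene. All levels below are such counts per 1000000 of them in the library (CPM). A single count was worth 0.203 CPM in the first library and 0.191 in the second. A fixed limit of 3 counts was set for a count of 0, which was worth 0.608 and 0.574 CPM. Mir208a and Mir499, from a list of 8 heart muscle genes, served to check the tissue label. Mir208a was at 1361 CPM in one heart and 3562 in the other, and Mir499 at 2933 and 2758 CPM, in replicate order. The whole list summed to 4533 and 6558 CPM, most of it from these 2 genes, and only 5 of the 8 reached the detection minimum given below. The check therefore rests on Mir208a and Mir499, and the remaining listed genes added little to it.

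A miRNA acts through its seed, bases 2 to 8 of the mature strand, which pairs with target transcripts and lowers their output, so that miRNAs with the same seed share many targets. Clustered miRNAs are cut as separate hairpins from a common primary transcript. The miR-17 family is known for repressing cell cycle inhibitors such as Cdkn1a, and the Mir17-92 cluster for promoting proliferation of heart muscle cells. The miR-25/92 family is known for repressing the pro-apoptotic gene Bcl2l11. In the heart, miR-25 is known as a repressor of the calcium pump gene Atp2a2, and miR-92a as a repressor of vessel growth. Mcm7, the host gene of the Mir106b-25 cluster, encodes a subunit of the helicase that opens DNA for replication.

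The mature strands that carry the family seeds are shown because they place the 9 members into 4 families and because they decide which reads can be told apart. They are RefSeq sequences on build GRCm38.p6, found for all 9 members, written 5′ to 3′ with the seed in capitals. The first 4 share the miR-17 seed, the next 3 the miR-25/92 seed, and the last pair are the miR-18 and miR-19 members.
mmu-miR-106b-5p: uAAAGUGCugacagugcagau
mmu-miR-93-5p: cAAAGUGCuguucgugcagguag
mmu-miR-106a-5p: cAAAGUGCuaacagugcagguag
mmu-miR-20b-5p: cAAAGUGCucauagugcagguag
mmu-miR-25-3p: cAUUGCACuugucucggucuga
mmu-miR-92a-3p: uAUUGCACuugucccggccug
mmu-miR-363-3p: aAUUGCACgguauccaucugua
mmu-miR-18b-5p: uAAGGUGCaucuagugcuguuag
mmu-miR-19b-3p: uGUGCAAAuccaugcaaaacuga
Both clusters hold the miR-17 and miR-25/92 seeds, while the miR-18 and miR-19 seeds occur among the members in the Mir106a-363 cluster alone. Counted from 1 at the 5′ end, miR-106a-5p differs from its paralogue miR-17-5p by the single substitution U10A. Between miR-106a-5p and miR-20b-5p the substitutions are A10C and C12U, and between miR-93-5p and miR-20b-5p they are G10C, U11A and C13A, all outside the seed.

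Reads were counted per gene, so the 5p and 3p strands of a hairpin were not separated, and a read with more than 1 placement entered no gene's count. The mature sequences of 7 members occur in no other annotated miRNA gene, and the longest run of bases that these 7 share with one is 17. Mir19b-2 shares a run of 25 bases with Mir19b-1, and Mir92-2 a run of 22 bases with Mir92-1, which in both cases contains the whole seed-bearing strand. The Mir92-2 hairpin (chrX:52741838-52741928, minus strand) and the Mir92-1 hairpin (chr14:115044427-115044506, plus strand) are shown from the GENCODE M21 transcripts, with the shared run in capitals.
Mir92-2: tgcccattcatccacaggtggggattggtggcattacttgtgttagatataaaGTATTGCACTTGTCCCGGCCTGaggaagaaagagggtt
Mir92-1: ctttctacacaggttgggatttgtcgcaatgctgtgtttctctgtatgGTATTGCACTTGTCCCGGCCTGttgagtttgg
A read that lies within the capitals has a match in both genes, and a read placed at both is in neither count. The opposite-strand column held 0 counts for all 9 members, and their unstranded counts were identical to the stranded ones.

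The Mir106b-25 cluster was the far more abundant of the clusters in both hearts. Its 3 genes held 58668 counts in replicate 1 and 41236 in replicate 2, which was 1.19% (exact Clopper-Pearson 95% interval 1.18 to 1.20%) and 0.788% (0.781 to 0.796%) of assigned counts, or 0.989 ± 0.284% (SD, n = 2). The 6 genes of the Mir106a-363 cluster held 1056 and 682 counts, 0.0214% (0.0201 to 0.0227%) and 0.0130% (0.0121 to 0.0141%), or 0.0172 ± 0.00592%. The Mir106b-25 counts were therefore 55.6 times the Mir106a-363 counts in replicate 1, with an exact 95% interval of 52.3 to 59.1, and 60.5 times in the other heart, with an interval of 56.1 to 65.3. Those odds differed between the libraries by a factor of 1.09, which did not pass Fisher's exact test (two-sided p = 0.0899). All intervals cover counting error only, within 1 library. The labels mention no molecular identifiers, so every read was taken as independent. Among the members whose strands occur in no other gene, the ratio was 244 in replicate 1 and 256 in replicate 2, because Mir92-2 supplied most counts of the Mir106a-363 cluster. For comparison, the Mir17-92 cluster on chromosome 14 held 0.538 ± 0.132% of assigned counts, between the other two among reads placed at a single gene. Its genes Mir92-1 and Mir19b-1 share mature strands with Mir92-2 and Mir19b-2, and reads placed at several loci are in none of these shares.

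**Figure D1:**
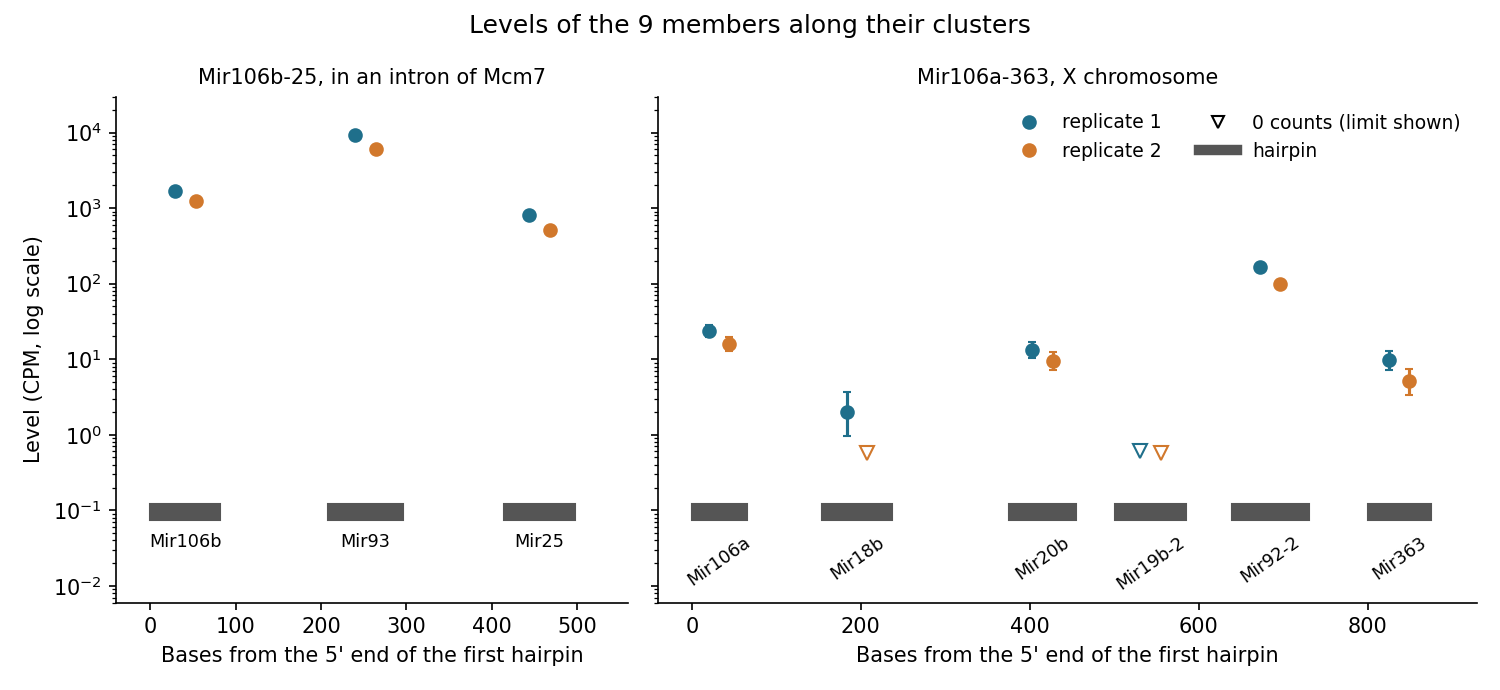
Level of each member in CPM (log scale) against the distance of its hairpin from the 5′ end of the first hairpin, for replicate 1 (blue) and replicate 2 (orange), with exact 95% Poisson intervals; open triangles mark 0 counts at the limit of 3 counts, and the height of the grey hairpin bars has no meaning. All 3 members of the Mir106b-25 cluster lie at 507 CPM or more and all members of the Mir106a-363 cluster at 165 CPM or less in both libraries.

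The Mir106b-25 cluster spans 498 bases (chr5:138165321-138165818, minus strand, mm10), and all 3 of its genes lie in intron 13 of the 14 introns of the principal Mcm7 transcript. Mir93 and Mir25 also overlap an exon of a retained-intron transcript of Mcm7. The Mir106a-363 cluster spans 875 bases (chrX:52741693-52742567, minus strand), and no annotated gene on its strand contains its members. The processed transcript Kis2 overlaps Mir106a by 5 bases.

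Mir93, a miR-17 family member, was the most abundant of the 9 genes. It lies 208 bases behind the start of the Mir106b hairpin (chr5:138165523-138165610), and its level was 9409 CPM in the first heart and 6141 CPM in the second, a mean of 7775 ± 2311 CPM (SD, n = 2). By its mean level it ranked 23 among the 356 genes with 10 or more counts in each library, called detected here. Ranks cover reads placed at a single gene only, so genes whose reads fall at several loci can rank too low. Mir106b, the first hairpin of the cluster (chr5:138165737-138165818), shares the miR-17 seed and was at 1667 and 1236 CPM, a mean of 1452 ± 305 CPM, which ranked 59. Mir93 counts exceeded Mir106b counts by factors of 5.64 (5.51 to 5.78) and 4.97 (4.84 to 5.10), in replicate order.

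The miR-17 family members of the X-linked cluster were far lower. Mir106a, its first hairpin (chrX:52742503-52742567), had 116 counts in replicate 1 and 84 in replicate 2, which was 23.5 CPM (exact Poisson 95% interval 19.4 to 28.2) and 16.1 CPM (12.8 to 19.9). Mir20b (chrX:52742113-52742192) had 66 and 50 counts, or 13.4 and 9.56 CPM, a mean of 11.5 ± 2.70 CPM (SD, n = 2). In each library Mir106a was above Mir20b, by 1.76 times (1.29 to 2.42) and 1.68 times (1.17 to 2.43). Together Mir93 and Mir106b held 300 times the counts of Mir106a and Mir20b in replicate 1 (259 to 349) and 288 times in replicate 2 (243 to 344). Mir17, which differs from Mir106a by 1 base in the 5p strand, was 91.8 times higher than Mir106a in replicate 1 and 119 times in replicate 2. Whether Mir17 reads with an error at that base were counted for Mir106a was not tested. Nor was it tested whether Mir20a reads were counted for Mir20b, whose 5p strand differs from that of Mir20a by 2 bases. Mir20a held 117 times the counts of Mir20b in replicate 1 and 72.9 times in replicate 2. The Mir106a and Mir20b levels, and each ratio that uses their counts, therefore hold for reads as placed.

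Mir25, the third hairpin of the Mir106b-25 cluster (chr5:138165321-138165404), carries the miR-25/92 seed. It was at 822 and 507 CPM, a mean of 665 ± 223 CPM (SD, n = 2), and ranked 86. Mir92-2, which carries miR-92a on the X chromosome, had 816 and 521 counts, or 165 CPM (154 to 177) and 99.6 CPM (91.2 to 109), and was the highest member of its cluster although its count leaves out any read placed at Mir92-1 too. Mir363, the last hairpin (chrX:52741693-52741767), had 48 and 27 counts, or 9.73 CPM (7.18 to 12.9) and 5.16 CPM (3.40 to 7.51).

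Within the miR-25/92 seed the clusters lay closer together than within the miR-17 seed. Mir25 held 4.69 times the counts of Mir92-2 and Mir363 in replicate 1 (4.36 to 5.06) and 4.84 times in replicate 2 (4.42 to 5.32), and these intervals do not overlap those of the miR-17 seed. Against Mir363 alone, Mir25 was higher by 84.5 times (63.6 to 115) and 98.3 times (67.4 to 149). Levels of different genes were compared without scaling by length, because a miRNA read covers a mature strand and not the hairpin; the hairpin genes were 65 to 91 bases long.

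Mir18b, the miR-18 family member (chrX:52742331-52742413), had 10 counts in replicate 1, or 2.03 CPM (0.973 to 3.73), and 0 counts in replicate 2. Its level in replicate 1 was 3.54 times the limit of 3 counts in replicate 2. That ratio leaves out the counting error of the 10 counts, so it is not a lower bound. The 5p strand of Mir18b differs by 2 bases from that of Mir18 in the Mir17-92 cluster, which had 631 and 445 counts. Whether Mir18 reads were counted for Mir18b was not tested. Mir19b-2, the miR-19 family member (chrX:52741983-52742066), had 0 counts in both hearts, where the limit is 0.608 CPM for the first and 0.574 CPM for the second. That limit holds for reads placed at Mir19b-2 alone. Mir19b-1, which carries the same mature strand, had 1 and 3 counts, and Mir19a, whose strand occurs in no other gene, had 5 and 1.

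In order of their levels the members ran from Mir93 through Mir106b, Mir25, Mir92-2, Mir106a, Mir20b, Mir363 and Mir18b to Mir19b-2. Neighbours in this order did not overlap between the libraries, except Mir20b (9.56 to 13.4 CPM) with Mir363 (5.16 to 9.73 CPM), and Mir18b with Mir19b-2, which met at 0. In neither cluster did the levels follow the order of the hairpins, as the plot of levels along the clusters shows. The highest member was the middle hairpin of the Mir106b-25 cluster and the fifth hairpin of the Mir106a-363 cluster.

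**Figure D2:**
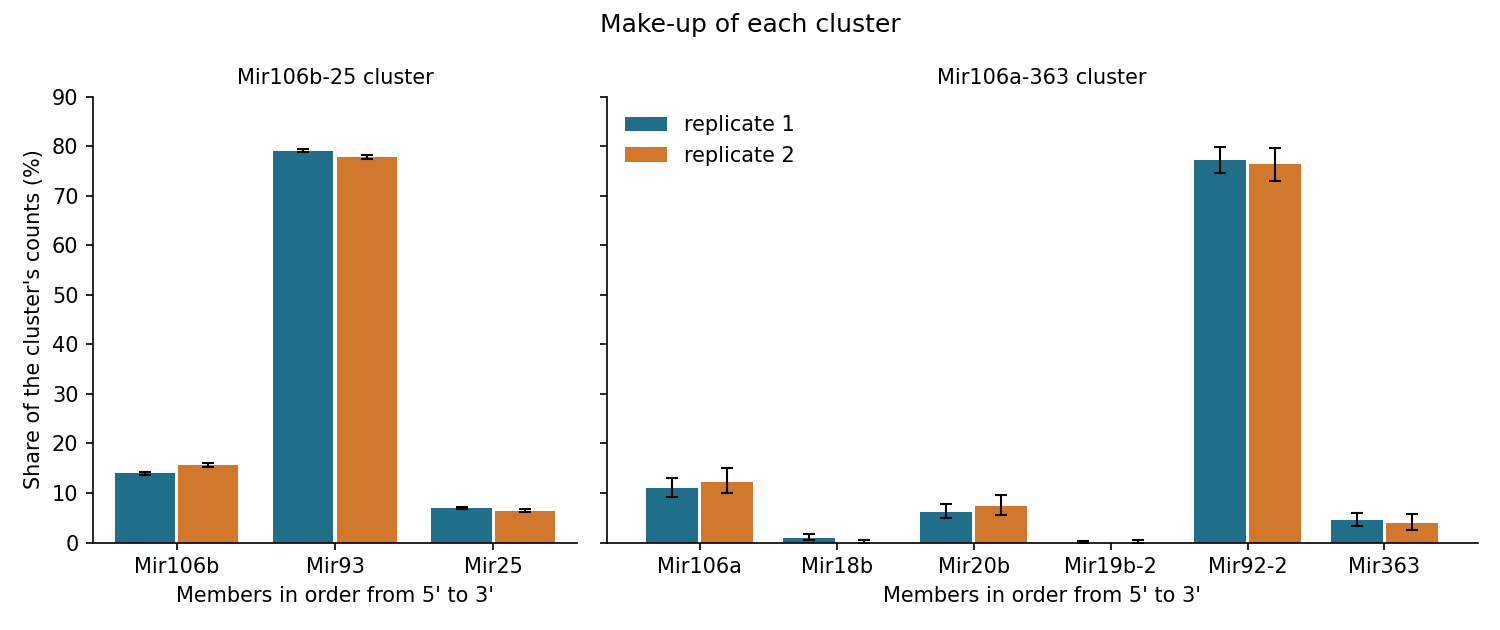
Share of the counts of each cluster (percent) held by each of its genes, in order from 5′ to 3′, for replicate 1 (blue) and replicate 2 (orange), with exact 95% intervals. Mir93 holds 79.1 and 77.9% of the Mir106b-25 counts, and Mir92-2 77.3 and 76.4% of the Mir106a-363 counts.

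Mir93 took the greater part of the Mir106b-25 counts in both hearts, with small differences in the proportions between them. Mir93 held 79.1% of the cluster in replicate 1 (78.7 to 79.4%) and 77.9% in replicate 2 (77.5 to 78.3%), Mir106b held 14.0% (13.7 to 14.3%) and 15.7% (15.3 to 16.0%), and Mir25 held 6.91% (6.71 to 7.12%) and 6.44% (6.20 to 6.68%). The 3 pairs of genes were compared between the libraries by Fisher's exact test, two-sided, with Benjamini-Hochberg adjustment over the 3. The odds of Mir93 over Mir106b were 0.880 times as high in replicate 2 (exact test, adjusted p = 6.68e-12), those of Mir106b over Mir25 1.20 times (exact test, adjusted p = 1.24e-09) and those of Mir93 over Mir25 1.06 times (exact test, adjusted p = 0.0317). These tests compare 2 libraries by counting error and not conditions. In the Mir106a-363 cluster Mir92-2 held 77.3% (74.6 to 79.8%) and 76.4% (73.0 to 79.5%), Mir106a 11.0% (9.16 to 13.0%) and 12.3% (9.94 to 15.0%), Mir20b 6.25% and 7.33%, and Mir363 4.55% and 3.96%, with overlapping intervals for each of the 4 genes.

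Among reads placed at a single gene, the Mir106b-25 cluster supplied most counts of the miR-17 family, and the Mir17-92 cluster most counts of the miR-25/92 and miR-18 families. Mir92-1 and Mir92-2 carry the same miR-92a-3p strand, and a read placed at both is in neither share. The split of miR-92a between these clusters therefore rests on the remaining reads. In the listed miR-17 family (Mir17, Mir20a, Mir106a, Mir106b, Mir20b and Mir93), the Mir106b-25 cluster supplied 74.2 ± 0.633% of counts (SD, n = 2), the Mir17-92 cluster 25.6 ± 0.628% and the Mir106a-363 cluster 0.252 ± 0.00522%. In the listed miR-25/92 family (Mir25, Mir92-1, Mir92-2, Mir363 and Mir367), Mir92-1 of the Mir17-92 cluster supplied 72.7 ± 2.14%, Mir25 22.6 ± 1.68%, and Mir92-2 with Mir363 4.74 ± 0.458%, while Mir367 was at 0 counts in both hearts. The Mir106b-25 cluster therefore led the miR-17 family and came behind Mir92-1 in the miR-25/92 family, in both libraries. Mir32 and Mir92b also carry the miR-25/92 seed but were not in the list; with them the share of Mir25 was 23.0% in replicate 1 and 20.7% in replicate 2. In the miR-18 family Mir18b supplied 1.56% of 641 counts in replicate 1 (0.751 to 2.85%) and 0 of 445 in replicate 2, the others coming from Mir18.

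**Figure D3:**
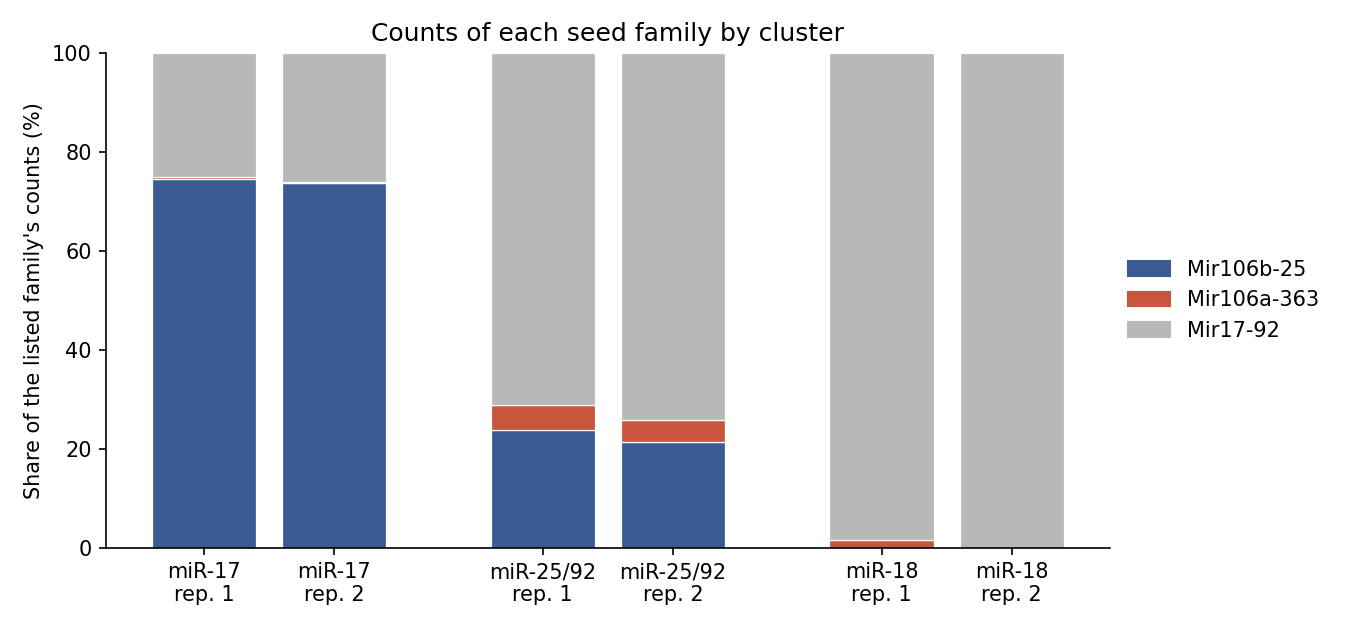
Stacked shares (percent) of the counts of the listed miR-17, miR-25/92 and miR-18 families that came from the Mir106b-25 (blue), Mir106a-363 (red) and Mir17-92 (grey) clusters, in each replicate. The blue part is 74.6 and 73.7% of the miR-17 family and 23.8 and 21.4% of the miR-25/92 family.

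The hearts were then compared gene by gene. Both clusters were lower in replicate 2: the summed Mir106b-25 level was 1.51 times as high in the first heart, with an exact 95% interval of 1.49 to 1.53, and the summed Mir106a-363 level 1.64 times as high (1.49 to 1.81). Of the 9 members, 7 were detected, and 6 of these were lower in replicate 2 by an exact binomial test with Benjamini-Hochberg adjustment over all 356 detected genes, while 1, Mir20b, was not called. Among all detected genes 63.5% were called in either direction, 30.6% as lower and 32.9% as higher in replicate 2. The median log2 ratio of the 7 detected members was -0.62, against 0.02 for all detected genes, whose SD was 0.86. Mir18b and Mir19b-2 were under the minimum of 10 counts and were not tested; with no minimum Mir18b was called lower as well (exact binomial test, adjusted p = 0.00277). Members of a cluster come from a common transcript, so the 7 ratios are not independent of each other.

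Mir106b had the smallest difference of the 7 detected members, 1.35-fold higher in replicate 1 (1.31 to 1.39), followed among the Mir106b-25 genes by Mir93 at 1.53-fold (1.51 to 1.55) and Mir25 at 1.62-fold (exact binomial test, adjusted p = 1.95e-84). In the Mir106a-363 cluster Mir92-2 was 1.66-fold higher in replicate 1 (1.49 to 1.86; exact binomial test, adjusted p = 1.92e-19). Mir106a was 1.46-fold higher (1.10 to 1.96; exact binomial test, adjusted p = 0.0150) and Mir363 1.89-fold higher (1.15 to 3.14; exact binomial test, adjusted p = 0.0135). Mir20b was 1.40 times as high in replicate 1, with an interval of 0.955 to 2.06 (exact binomial test, adjusted p = 0.114). edgeR's exact test, run with a common biological coefficient of variation of 0.386, called 0 of the 7 members, also at an unadjusted p below 0.05, and 1.12% of all detected genes (5.34% unadjusted). Its spread was estimated from the same 2 libraries that it compared, so the count of 0 says nothing about whether the members differ between hearts. The binomial calls cover counting error only, and with 1 library per numbered animal, animals and library preparation cannot be told apart. The labels give both animals the same donor identifier, so the differences between the libraries may be technical.

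**Figure D4:**
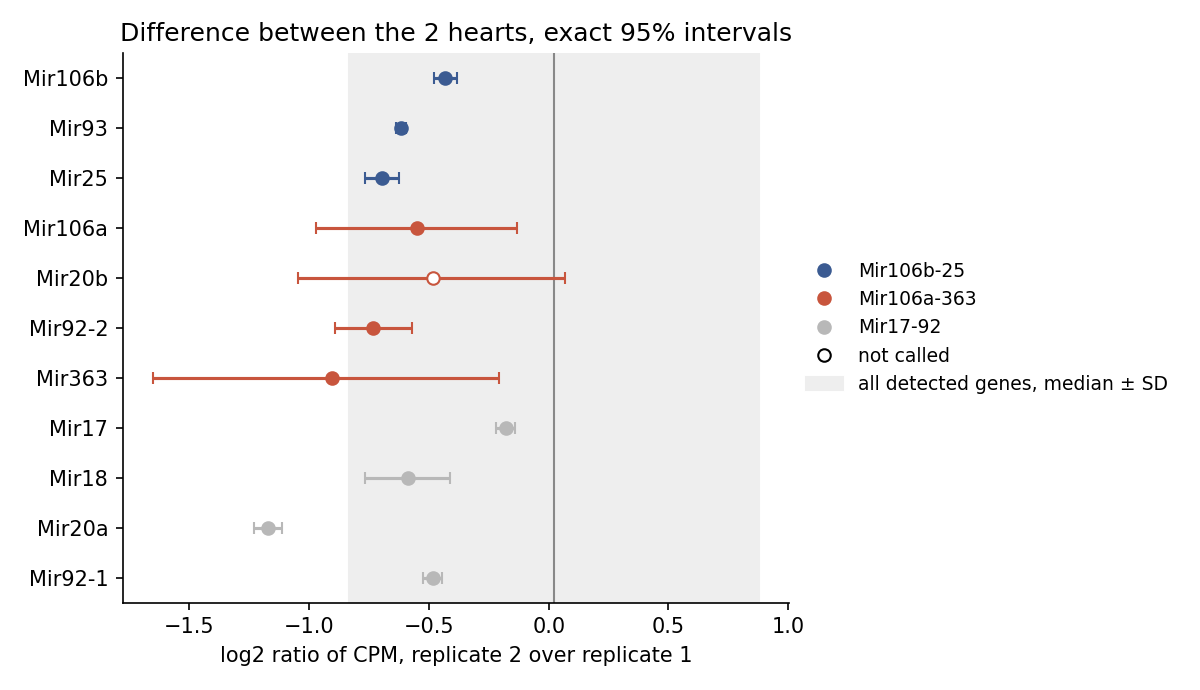
Log2 ratio of CPM, replicate 2 over replicate 1, for the 7 detected members and the 4 detected Mir17-92 genes, with exact 95% intervals; the open symbol was not called, and the grey band is the median ± SD of all 356 detected genes. All 7 members lie below 0, from -0.90 (Mir363) to -0.43 (Mir106b).

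The related Mir17-92 genes, measured in the same libraries, gave log2 ratios of -0.18 for Mir17, -0.59 for Mir18, -0.48 for Mir92-1 and -1.17 for Mir20a, and the same test called these 4 lower in replicate 2. Their spread was wider than that of the 7 members, whose ratios ran from -0.90 to -0.43; the difference between the sets was not tested.

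Markers of cell types differed between the hearts as well. The red blood cell list, Mir144 and Mir451a, had both genes called lower in replicate 2, and its summed level was 21812 CPM in the first heart and 1161 CPM in the second, with neither at 0. The summed levels of the other lists were lower in replicate 1. They were 4533 against 6558 CPM for heart muscle (5 of 8 genes detected) and 6415 against 8108 CPM for leukocytes (6 of 8). No other gene of the leukocyte list was among the genes counted. For endothelium the sums were 57798 against 72018 CPM (3 of 4), and for smooth muscle 30025 against 36447 CPM (2 of 2). For fibroblasts they were 3416 against 9524 CPM (3 of 4, with Mir199a-1 at 0 in both hearts). By the same binomial test, 1 heart muscle gene was called higher in replicate 2 and 1 lower, against 4 and 1 for leukocytes. In the endothelial list 3 were called higher, in the smooth muscle list 2 and in the fibroblast list 2, with 0 lower in these lists. The heart muscle sum moved with Mir208a, while Mir499 was at 2933 and 2758 CPM. With Mir451a and Mir144 left out of the totals, the same 6 members were called lower in replicate 2, with a median log2 ratio of -0.65 over the 7. Of all 356 detected genes, 61.5% were then called in either direction. The part of these markers in the members' differences was not tested, and in bulk tissue fewer cells of a type and less RNA per cell cannot be told apart. The reads placed at several loci, 41.6% in replicate 1 and 37.4% in replicate 2, and the unmapped reads, 15.0 and 20.2%, also differed.

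Genes outside the clusters with the most similar levels were found by the distance of log2 CPM over the 2 libraries. Nearest to Mir93 were Mir100 (distance 0.28), Mir99b (0.44), Mirlet7f-2 (0.51), Mir652 (0.55) and Mirlet7e (0.61). Nearest to Mir92-2 were Mir337 (0.14), Mir193b (0.28), Mir196b (0.42), Mir18 (0.43) and Mir204 (0.45). Mir18, the Mir17-92 gene for miR-18a, was the 1 gene of a paralogous cluster among these 10. With 2 libraries the measure reflects level more than pattern.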

How the data were processed

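For each library the authors deposited a table of read counts, whole numbers for every miRNA gene, in unstranded, same-strand and opposite-strand columns. The authors counted on build mm10 with GENCODE M21, per the text deposited with the files; which aligner and counter they ran is not given in the sources used here. The build is of strain C57BL/6J, and the effect of CAST alleles on placement was not tested. The same-strand column was used, and 4 tally entries (unmapped, several loci, outside genes, ambiguous) were left out of totals. All 2202 identifiers matched GENCODE M21.

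Both libraries form 1 group, numbered as biological replicates but with a shared donor identifier, so the spread may be technical. With no contrast for edgeR's quasi-likelihood test, genes with 10 or more counts in each library were compared by an exact conditional binomial test against library totals (two-sided, Benjamini-Hochberg, threshold 0.05; log2 ratios with a pseudocount of 0.5 counts). Ratios and shares have exact Clopper-Pearson intervals (scipy 1.17.1). Alternatives used edgeR 4.0.16 (TMM, exact test with the dispersion of an intercept-only fit) and DESeq2 1.42.0 size factors. Tests were tried on simulated data.

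Members and lists were chosen with earlier results of these data known. Named genes are the 9 members, the Mir17-92 genes, Mir367, and the 5 genes nearest in level to the highest member of each cluster. Cell type markers are named beside the results they move with. Mir32 and Mir92b, found by seed, and Mir199a-1 were named outside this rule, and totals without red blood cell genes were added after seeing the data.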

Additional observations from a re-analysis of the deposited data

Results flagged for a closer look

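Reads placed at several loci carried signal that no gene count contains: they made up 41.6% of all reads in replicate 1 and 37.4% in replicate 2, or 5497619 and 5375745 reads. Mir19b-2 and Mir92-2 are the members whose mature strands occur in another gene, and the share of those reads that belongs to them was not tested.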

How the results depend on the processing

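The Mir106b-25 share, 0.989% of assigned counts, was 1.36% with the unstranded column, whose total is smaller, and 0.366% of all reads; the Mir106a-363 share, 0.0172%, was 0.0237% and 0.00637%. Leaving out 1 library gave 0.788 to 1.19% and 0.0130 to 0.0214%. The mean ratio of the clusters, 58.0, was 55.6 to 60.5 without 1 library, 250.3 over members whose strands occur in no other gene and 156 from medians. Calls between the hearts were 6 of 7 members in the reported test and 0 with edgeR's exact test, whose spread came from the same 2 libraries, so that it says nothing about stability; of 53 alternative values for the 7 detected members, 47 kept direction and side of the threshold, 6 lost the call, all with that edgeR test, and 0 reversed. A change of the minimum count could not move a member's ratio, and the unstranded column changed only the totals. Many of the 53 values were therefore bound to stay close to the reported ones. At least 100 counts left 4 members to test, all called, beside 81.1% of all 222 genes tested. No filter added Mir18b (exact binomial test, adjusted p = 0.00277), beside 32.1% of all 754 genes tested. In the reported test and in the edgeR test the shares called were 63.5% and 1.12% of all 356 detected genes. Members sharing bases with another gene were 2 at 18, 20 and 22 bases. Mir18b, Mir20b and Mir363 rest on 66 counts or fewer per library, and reads shared with Mir19b-1 are in no count of Mir19b-2. No paired analysis was possible because both libraries belong to 1 group.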
